A study of Arabidopsis thaliana with 6 samples.

Results

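The transcriptome of mature wild-type pollen of Arabidopsis thaliana was described from 2 ATH1 arrays, on which each gene is read by a set of short probes. Of the 22810 probe sets on the array, 64 were manufacturer's controls and 13513 carried exactly 1 annotated gene. These 13513 were ranked by their mean linear signal over both arrays, and the brightest 300, which stand for 300 different genes, are described here. They made up 2.22% of the ranked probe sets, which covered 13356 genes in all. Signal is a scaled intensity without a physical unit, and the arrays had been scaled alike, with trimmed means of 100.014 and 100.013. Probe sets differ in how strongly they bind their transcript, so a rank is an order of signal and not of transcript number.

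Both arrays were labelled as mature pollen of the accession Col-0, stock N1092, from plants at growth stage 6.00, with no transgene or treatment named. The plants had been raised in soil indoors, with the room held at 21 °C and a humidity of 75%. Whether replicates 1 and 2 were grown or harvested independently was not stated, so the spread between them may be technical. The series held 6 arrays in 3 groups, and the 4 arrays of the other two groups, each a line with an insertion in a transcription factor gene, were not used. With 2 arrays the number of arrays limits the precision, and no test was made.

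A mature Arabidopsis pollen grain consists of a large vegetative cell that encloses a pair of sperm cells. It is shed dry, loaded with stored transcripts and proteins. On the stigma the vegetative cell grows a tube by adding membrane and pectin-rich wall at its tip, steered by actin, calcium and small signalling peptides, and carries the sperm cells to the ovule. Pectin methylesterases stiffen or loosen this wall by removing methyl groups from pectin, their inhibitors hold them back, and polygalacturonases and pectate lyases cut the pectin chain.

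The signal was concentrated in few genes. The brightest 300 held 60.4% of all ranked signal on replicate 1 and 58.8% on replicate 2, a mean of 59.6% ± 1.16 (SD, n = 2). The brightest 10 held 9.76% and 9.91%, and the brightest 100 held 42.4% and 41.1%. From the top down, 38 probe sets were enough for 25% of the signal, 163 for 50%, 941 for 75% and 3610 for 90%. The mean signal was 36301 at rank 1, 4452 at rank 100 and 1249 at rank 300, against a median of 34.0 over all ranked probe sets.

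**Figure D1:**
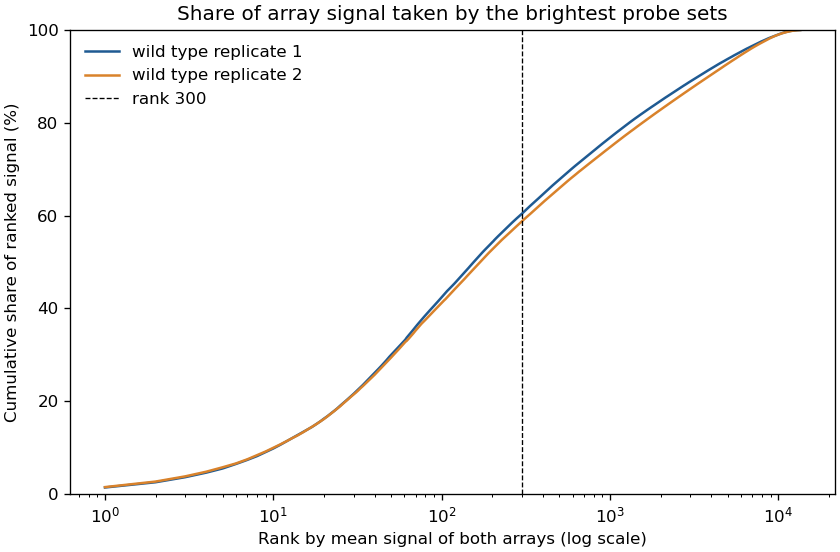
Cumulative share of ranked signal (%) against rank by mean signal (log scale), 1 line per wild-type array, with a dashed line at rank 300. The lines lie close together over the first 20 ranks, where they reach 16.2% and 16.1%, with replicate 1 above at rank 300 (60.4% against 58.8%) and at rank 1000 (76.8% against 74.7%).

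The ranking covered only part of the array. Probe sets with 1 gene held 52.9% of the non-control signal on replicate 1 and 53.0% on replicate 2. No gene was listed here for 8730 probe sets, and 503 were assigned several genes. Among the 300 brightest of all 22746 non-control probe sets, 167 had 1 gene, 125 had no listed gene and 8 had several. Of the 20 brightest, 10 had 1 gene. Bright pollen genes are therefore missing from the ranks below. No non-control probe set was brighter than rank 1. None of the 300 was a probe set of the kinds marked as able to bind several transcripts, of which the ranking held 173 and 110.

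At the very top stood AT3G28750, a gene known here by its locus only, with a signal of 35822 on replicate 1 and 36781 on replicate 2. It ranked first on both arrays and alone held 1.39% of the ranked signal. Of the 300 genes, 57 had a symbol (19%, against 11.7% of all ranked probe sets) and 243 were known by locus tag only. The annotation used gave no descriptions, so the families named below for bare loci are textbook assignments, made with the ranking in view and for the 300 alone. They cover 79 genes in 18 families, which held 23.7% of the ranked signal, and each family's count is a minimum. The other 221 genes, with 35.9% of the signal, were given no family.

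Genes of pectin enzymes were among the top ranks. Members of these families were not counted over the whole ranking. Their counts therefore cannot be set beside the 2.22% of all ranked probe sets. At least 14 of the 300 genes encoded pectin methylesterases, polygalacturonases or pectate lyases, 3 of them in the brightest 20 and 13 in the brightest 100, with 6.72% of the ranked signal on replicate 1 and 6.49% on replicate 2. A further 6 genes, 5 of them in the brightest 20, belonged to the family that holds both invertase inhibitors and pectin methylesterase inhibitors, which were not told apart. All 20 together held 10.8% and 10.5%. Only AT59 among them carried a symbol.

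The family of invertase and pectin methylesterase inhibitors held 4.07% of the ranked signal. AT1G10770, at rank 2, read 30066 and 30668 on replicates 1 and 2. AT2G47050, at rank 7, read 23149 and 22563. These members were close on both arrays, whereas AT4G02250 (16028 and 13838) and AT5G50030 (16076 and 13748) were dimmer on replicate 2. AT3G62180 at rank 19 read 15073 and 14775, and AT1G23350 at rank 56 read 7729.9 and 8148.

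The pectin methylesterases numbered 7 and held 2.75% of the signal. AT5G07430, at rank 5, read 23642 and 24308 and stood well above the next member, AT3G17060, at 12459 and 11729. AT3G05610 read 13010.1 and 10616, and AT2G26450 read 10581 and 10562. The remaining 3 members lay lower, the dimmest at rank 169.

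Polygalacturonases contributed 3 genes and 2.00% of the signal. AT3G07820 at rank 3 read 28933 and 28751, a difference far smaller than its distance to the other two, AT5G48140 (13962 and 12755) and AT2G23900 (10325 and 9550.3). Among 4 pectate lyases, with 1.85% of the signal, AT3G01270 at rank 9 read 23399 and 20379. The other three formed a tight group between ranks 49 and 53: AT5G15110 read 10132 and 8709, AT59 read 9012 and 8242, and AT2G02720 read 8600 and 8159. All 4 pectate lyases were brighter on replicate 1, as were 215 of the 300.

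Other wall and secreted proteins also ranked high. Ole e 1-like proteins, secreted proteins named after the major olive pollen allergen, contributed 3 genes: AT5G45880 at rank 4 (26010 and 25722), AT1G29140 at rank 15 (15959 and 15966) and AT1G78040 at rank 156 (2878 and 2908). All 3 were nearly level between the arrays. The 4 leucine-rich repeat extensins, wall proteins that anchor signalling at the pollen tube surface, spanned ranks 67 to 164 and were all brighter on replicate 1. Their leading members were AT1G49490 (7836 and 6851), AT3G19020 (7838 and 6635) and AT2G15880 (6894 and 5059).

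Wall-loosening enzymes with symbols were spread over the 300. The endoglucanases of glycosyl hydrolase family 9, which cut cellulose-like chains, were GH9A4 at rank 46 (9865 and 9914) and GH9B11 at rank 97 (4991 and 4256). Expansins, which loosen the wall without cutting it, were EXPA4 at rank 72 (6952 and 6860.3) and EXPB5 at rank 200 (2265 and 1924). CSLC12, a relative of the xyloglucan backbone synthases, read 1930.2 and 1499 at rank 229. The list of wall glycoproteins and wall-loosening enzymes had 53 ranked genes and a median rank of 4590. These 5 genes were its members in the brightest 300, which made up 2.22% of all ranked probe sets. Glycosyl hydrolases of family 17, a family of beta-1,3-glucanases, added AT3G55430 (7731 and 7370.2), AT5G64790 (3743 and 3246) and AT5G20390 (2332 and 2325).

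**Figure D2:**
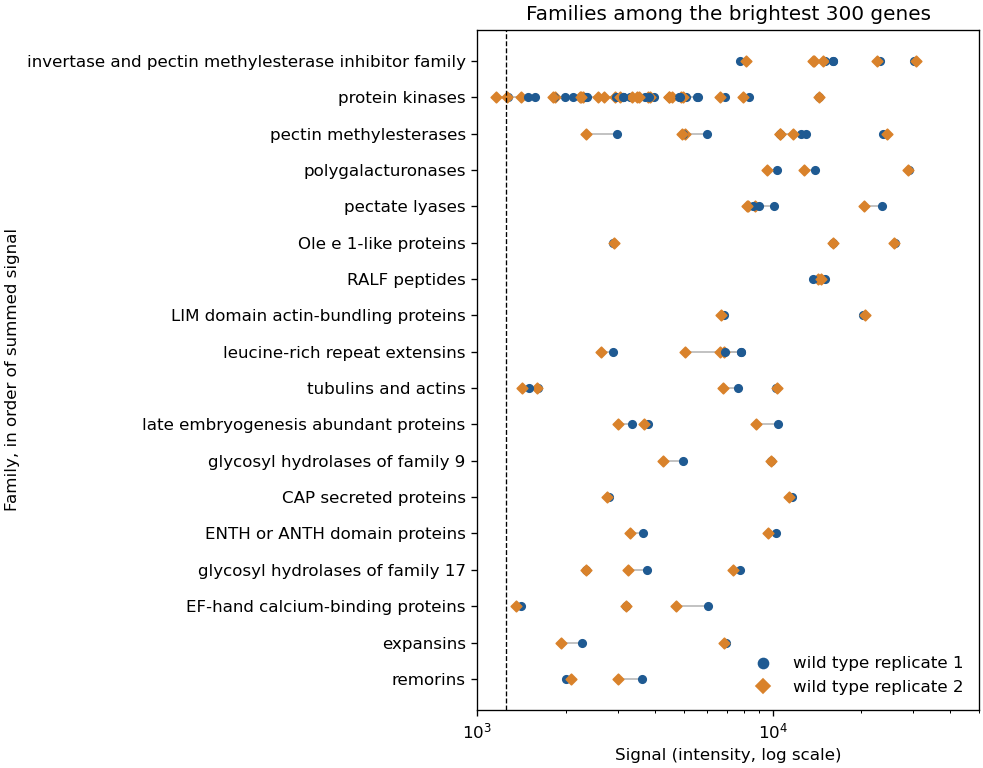
Signal (intensity, log scale) of the 79 genes given a textbook family, 1 row per family in order of summed signal; circles are replicate 1, diamonds replicate 2, and a line joins the values of 1 gene. The dashed line marks rank 300 (1249); the pectin enzymes and the inhibitor family lie mostly in the right-hand part, while the 25 protein kinases reach from 14352 down to 1265.

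Some genes of the cytoskeleton were bright. PLIM2a, a LIM domain protein that bundles actin filaments, was the brightest ranked gene with a symbol, at rank 10, with 20237 on replicate 1 and 20607 on replicate 2. Its relative PLIM2b read 6842 and 6672 at rank 73. TUA1, an alpha-tubulin known from pollen, read 10279 and 10350 at rank 41. TUB9, a beta-tubulin, read 7613 and 6803 at rank 70. Of 11 ranked genes on the cytoskeleton list, 4 were in the 300 (TUA1, TUB9, TUA6 and ACT11), against 2.22% of all ranked probe sets. All 11 were above the median of the ranking. The list's median rank was 627, and its dimmest member, TUB5, lay at rank 4121. ACT11, an actin of reproductive tissue, read 1494 and 1412. SP1L4, of a family that acts on microtubules, read 7631 and 7926 at rank 58.

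Signalling genes of the growing tube were led by 2 RALF peptides, small secreted peptides sensed by receptor kinases at the cell surface. RALFL26 read 15104 and 14221 at rank 22, and RALFL25 read 13700.1 and 14634 at rank 26. Their order was reversed between the arrays, so neither can be placed above the other. ANX1 and ANX2, the ANXUR receptor kinases that keep the pollen tube from bursting early, ranked far lower. ANX2 read 3697 and 3859 at rank 114, and ANX1 read 1480.1 and 1156 at rank 284. On the list of tip signalling genes, these 4 were in the brightest 300 of 13 ranked, against 2.22% of all ranked probe sets. The other ranked members were RALF genes and were dimmer, led by RALFL33 at rank 963 (339.9 and 329.2). The list's median rank was 2595, and 9 of the 13 were above the median of the ranking.

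Of the genes given a family, 25 were protein kinases, with 3.75% of the signal, of which 8 were in the brightest 100. The brightest, AT3G61160, read 14364 and 14340.3 at rank 24, well clear of AT5G12000 (8333 and 7909) and AT5G65530 (6889 and 6617). Both Aurora kinases of the 300, AUR1 and AUR2, known for their part in cell division, lay at ranks 194 and 221. PIPK11, a phosphatidylinositol phosphate kinase, read 3288 and 2773 at rank 149. EF-hand calcium-binding proteins contributed 3 genes, led by AT4G03290 (6019 and 4690). The 16 ranked genes of the calcium signalling list were calmodulin-like and glutamate receptor-like genes, and none was in the 300. No calcium-dependent kinase on that list had a ranked probe set.

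Genes of other functions were scattered through the ranks. Late embryogenesis abundant proteins, which accumulate in drying tissue, contributed AT5G38760 at rank 48 (10458 and 8771), AT3G02480 at rank 116 (3798 and 3673) and AT5G53820 at rank 143 (3341 and 3006). These loci were not on the symbol-matched list of late embryogenesis abundant and desiccation genes. That list had 12 ranked genes, 0 of them in the 300 and 5 above the median of the ranking, with a median rank of 7879. SAMDC, an enzyme of polyamine synthesis, read 8034 and 6121 at rank 71. PPDK, which makes phosphoenolpyruvate from pyruvate, read 4483 and 4110.3 at rank 104. LCR72, a defensin-like secreted peptide, read 11316 and 9491 at rank 40. CAP proteins, a secreted family, contributed AT4G25780 at rank 36 (11672 and 11332) and AT1G01310 at rank 163 (2787 and 2743). Proteins with an ENTH or ANTH domain, which act in vesicle budding, were AT1G68110 at rank 45 (10236 and 9619) and AT1G03050 at rank 129 (3631 and 3294). The remorins, proteins of the plasma membrane, were AT3G61260 with a mean of 3299 and AT2G45820 with a mean of 2035. SUFE2, a pollen-expressed activator of sulfur transfer for iron-sulfur clusters, read 2334 and 2367 at rank 181.

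Of 81 ranked genes on the list of transcription factors, 1 was in the brightest 300, a share near the 2.22% of all ranked probe sets. The list was matched by symbol or synonym, so factors with neither are missing from it, and brighter ones may be among these. The list's median rank was 7806, and 37 of the 81 were in the brighter part of the ranking, above its median. The listed gene in the 300 was AGL18, a MADS-box factor known from pollen, at rank 173 with 2537 and 2522. The next were AT2G40620, which encodes a bZIP factor (1058 and 1039), ILR3 (782 and 822) and AGL66, a MADS-box factor of late pollen (793 and 670), at ranks 357, 455 and 486. BZIP34, another pollen bZIP factor, lay at rank 5433 with 35.5 and 55.7, near the median of the ranking.

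Over all 22 gene lists, 348 genes were ranked and 20 of these were in the brightest 300, 8 in the brightest 100 and 49 in the brightest 600. The brightest 300 made up 2.22% of all ranked probe sets. Genes with a symbol made up 19% of the 300, against 11.7% of all ranked probe sets. Since lists were matched by symbol or synonym, genes with neither could not enter them. The pectin list shows this limit, with 0 of 6 ranked genes in the 300 although at least 14 genes of pectin enzymes were there. Of the 22 lists, 13 had no member in the 300. Among them were the sugar transporters, with 21 ranked and AtVEX1 the brightest at rank 544 (623 and 684), and ion and proton transport, with 11 ranked and VHA-A3 the brightest at rank 473 (732 and 785). The list of primary energy metabolism had 14 ranked genes, 13 of them above the median of the ranking, led by GAPC2 of glycolysis at rank 352 (1139 and 996). No aquaporin had a ranked probe set.

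**Figure D3:**
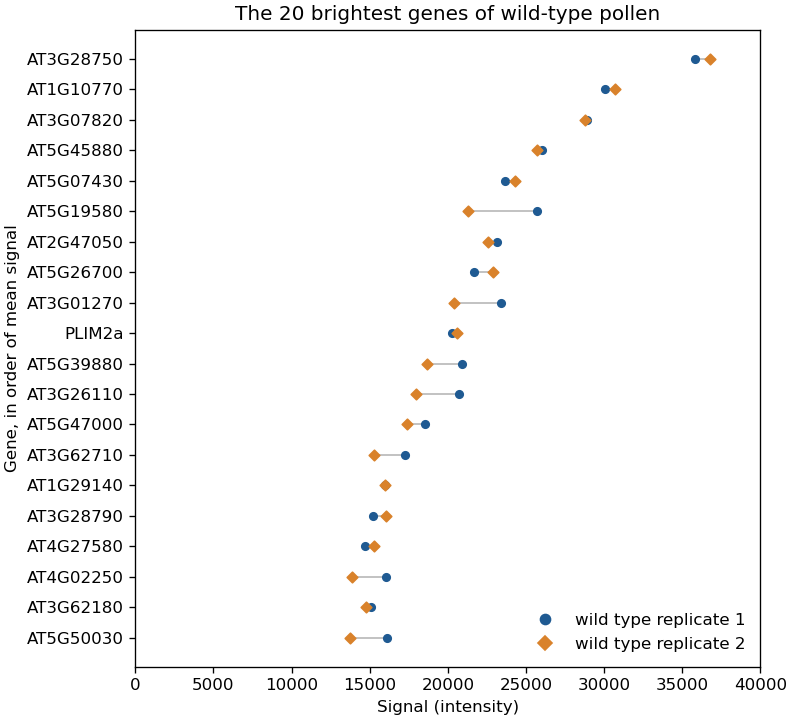
Signal (intensity, linear scale) of the 20 brightest ranked genes in order of mean signal. Circles are replicate 1, diamonds replicate 2, and a line joins the values of 1 gene. AT3G28750 leads at 35822 and 36781; the 5 brightest genes are separate from one another on both arrays, and among lower neighbours only ranks 13 and 14 are.

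Among the 20 brightest, several genes were given no family. AT5G19580 at rank 6 read 25731 and 21268, a wider gap than at any other of the 20, and AT5G26700 at rank 8 read 21641 and 22855. At ranks 11 to 14 came AT5G39880, AT3G26110, AT5G47000 and AT3G62710, with means from 19804 to 16265, all brighter on replicate 1. AT3G28790 at rank 16 read 15186 and 16015, and AT4G27580 at rank 17 read 14677 and 15259.

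Some of the brightest genes lay next to each other in the genome. The longest run was on chromosome 3, where 5 members spanned 10 consecutive genes and held 2.82% of the ranked signal. These were AT3G28750, AT3G28780 (3344 and 3582), AT3G28790, AT3G28830 (14826 and 14172) and AT3G28840 (3533 and 3899). Signal within the run was not uniform: AT3G28760, directly beside the brightest gene, read 1.19 and 6.04, and AT3G28770 read 230 and 187. Both RALF peptide genes were direct neighbours on chromosome 3, as were the pectin methylesterase genes AT5G07420 (4988 and 4940.4) and AT5G07430 on chromosome 5. In all, 39 of 286 nuclear genes of the 300 (13.6%) had another member within 5 genes, in 17 runs. The same share was 7.35% for ranks 301 to 600, 14.8% for ranks 601 to 900 and 12.0% for ranks 901 to 1200, so the share in the 300 lay within the range of the lower bins. Direct adjacency was counted 9 times in the 300, and 2, 5 and 2 times in the 3 lower bins.

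By chromosome, the share of ranked probe sets that reached the 300 ran from 1.77% on chromosome 2 to 2.62% on chromosome 3. Chromosome 3 held 25.3% of the ranked signal with 20.3% of the ranked probe sets. No member came from the 989 ranked probe sets of annotated pseudogenes, whose median signal was 12.5 and whose highest was 399. Their 95th percentile was 57.1, which rank 300 exceeded 21.9-fold and which 4485 ranked probe sets exceeded.

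Genes encoded in the plastid genome, which supplies photosystem, ATP synthase and gene expression proteins of the organelle, were bright as a group. Of 69 ranked, 12 were in the 300 (17.4%, against 2.22% of all ranked probe sets). Their median rank was 599, and all 69 were above the median of the ranking. They held 2.51% of the ranked signal on replicate 1 and 2.11% on replicate 2. psbM, a small subunit of photosystem II, was the brightest at rank 62 but read 10032 on replicate 1 and 5032 on replicate 2. atpE, of ATP synthase, read 2979 and 3307, ccsA, of cytochrome assembly, read 2722 and 2574, and matK, the plastid intron maturase, read 2032 and 2232. These 3 differed far less between the arrays than psbM.

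Plastid-encoded genes were more often brighter on replicate 1 than not, 54 of 69, with a median log2 ratio of replicate 2 to replicate 1 of -0.28. Without psbM it was 53 of 68 and -0.26. Over all ranked probe sets, 6254 of 13513 were brighter on replicate 1, with a median log2 ratio of 0.06. At ranks 301 to 1000 it was 447 of 700 and -0.06. Within the brightest 300, 7 of 12 plastid-encoded members were brighter on replicate 1, with a median log2 ratio of -0.06, close to that of the other 288 members, of which 208 were brighter on replicate 1, with a median of -0.08.

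The label of mature pollen was checked against marker genes. Markers were matched by symbol or synonym, and the numbers of listed genes are those found this way in the gene table. A listed gene without a rank had no probe set matched to it alone, whatever its signal. Marker genes known by locus tag only, without a synonym, could be missed from both numbers. The counts of ranked markers are therefore minima, and the brightest marker may not be among them. For the vegetative cell and pollen tube, 3 of 14 listed genes were ranked, ANX2, ANX1 and ACT12, a pollen actin at rank 309 (1205 and 1242), and all lay within the brightest 600. For sperm cells 3 of 9 were ranked: MGH3, a sperm histone, read 536 and 617 at rank 593, while TET11 read 60.2 and 122 and TET12 had a mean of 41.6. The summed signal was 6382 on replicate 1 and 6257 on replicate 2 for the vegetative markers, and 647 and 773 for the sperm markers. These sums come from different probe sets, so the lists cannot be set against each other. In bulk RNA, fewer cells of a type and less RNA per cell cannot be told apart either.

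Markers of green tissue gave signal on both arrays. Of 79 listed genes 31 were ranked, all above the median of the ranking, with summed signals of 30803 and 23754. The 300 held 3 of the 31, against 2.22% of all ranked probe sets. Of the 31, 20 were plastid-encoded photosystem genes (23988 and 17328 summed) and 11 were nuclear (6816 and 6426 summed). After psbM, the plastid-encoded ones were psbI at rank 252 (1535 and 1548), then psbZ, psbF, psaB, psbA, psaI, psbK, psbT, psbJ and psaJ between ranks 322 and 503. Below these came psbB, psbH, psbE, psbL, psaC, psbC and psbN between ranks 684 and 997, psbD at rank 1228 and psaA at rank 2119. The brightest nuclear one was RCA, the activase of the carbon-fixing enzyme Rubisco, at rank 235 with 1744 and 1618. PSBW (1002 and 799), PSAE-1 (750.0 and 771) and HPR, a photorespiratory reductase (727 and 690.0), followed at ranks 408, 469 and 497. PSAN, PRK, PSBY, LHCB4.1, SBPASE and LHCB4.2 lay between ranks 734 and 869, and LHCB4.3 at rank 3211 read 50.1 and 117. The lowest mean of the ranking was 0.51, so a signal above 0 does not show that a marker was present. The lowest mean was 83.5 among the nuclear markers and 133 among the plastid-encoded ones. Annotated pseudogenes had a 95th percentile of 57.1 and a highest mean of 399. The part of green tissue in the ranking was not tested.

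Few tapetum and floral markers had a probe set matched to them alone, which says nothing of their signal. Of 12 tapetum markers 2 were ranked, SWEET8, a sugar exporter, at rank 559 (672 and 589) and AMS, a tapetal transcription factor (47.2 and 17.9), with sums of 719.5 and 607. Of 10 flower and seed coat markers 2 were ranked, DFR (116 and 91.8) and BAN (41.5 and 70.0), both enzymes of flavonoid synthesis, with sums of 157 and 162. The means of AMS (32.6) and BAN (55.8), like that of TET12 (41.6), were below the 95th percentile of annotated pseudogenes (57.1). The part of these tissues in the ranking was not tested.

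**Figure D4:**
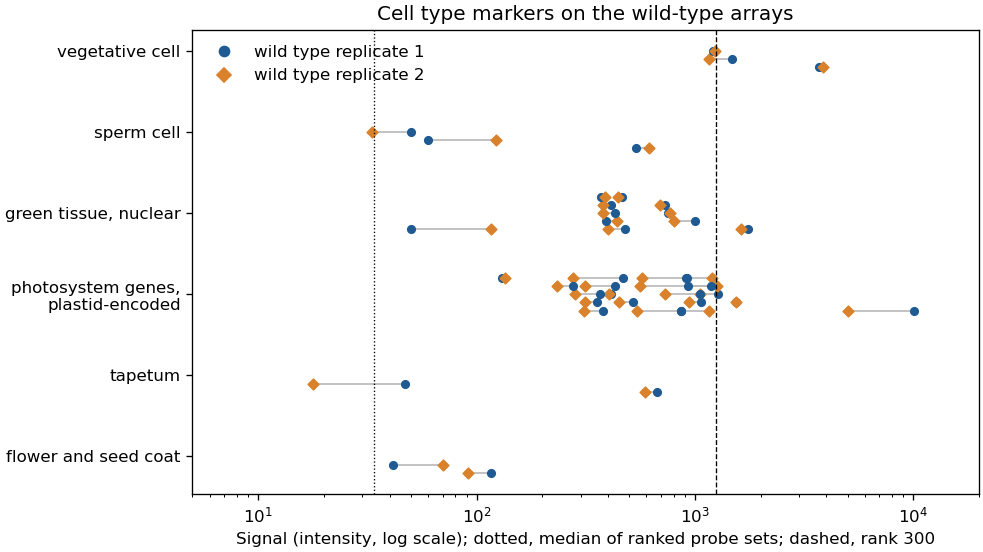
Signal (intensity, log scale) of the ranked cell type markers, 1 row per marker list; circles are replicate 1, diamonds replicate 2, and a line joins the values of 1 gene. The dotted line is the median of the ranked probe sets (34.0) and the dashed line rank 300 (1249); all 31 green tissue markers lie to the right of the dotted line, most of them left of the dashed one.

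The arrays were close for bright genes and far apart for dim ones. Over the 13513 ranked probe sets, log2(signal + 1) correlated with a Pearson coefficient of 0.837 and a Spearman coefficient of 0.820. This is across probe sets of 2 arrays, and probe sets are not independent replicates. Within the brightest 300 the values were 0.989 and 0.980. The median absolute log2 ratio between the arrays was 0.11 in the 300, 0.16 at ranks 301 to 1000, 0.24 at ranks 1001 to 3000, 0.45 at ranks 3001 to 6756 and 1.09 in the dimmer part of the ranking. A difference of over 2-fold was seen in 1 of the 300, and in 3622 of the 6757 dimmest probe sets. The median coefficient of variation in the 300 was 5.31%.

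**Figure D5:**
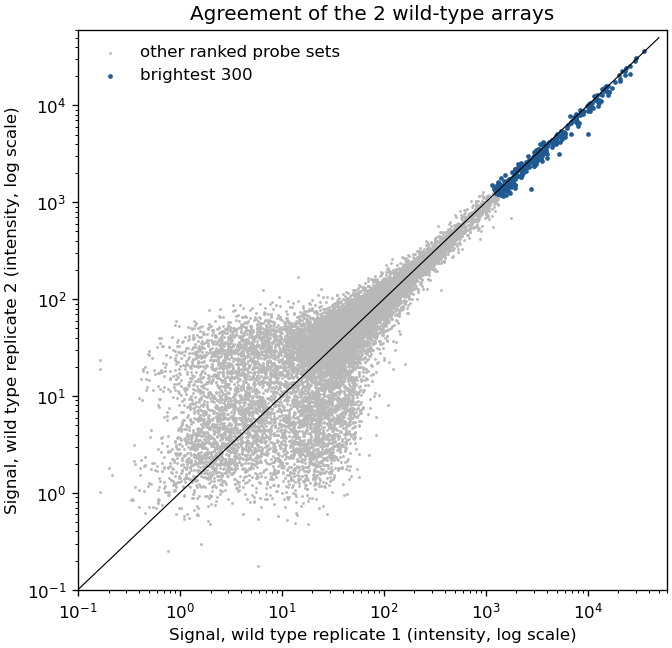
Signal on replicate 2 against signal on replicate 1 (intensity, both axes logarithmic) for all ranked probe sets; dark points are the brightest 300, grey points the rest, and the line marks equal signal. The dark points hug the line, with 1 of 300 over 2-fold from it, while grey points below about 100 spread widely.

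The set of 300 was firmer than the order within it. Taken on each array alone, the lists of the brightest 300 shared 285 genes, the brightest 100 shared 95 and the brightest 20 shared 16. From one array to the other a member moved by a median of 8 ranks, with a 95th percentile of 45.1 and a maximum of 101. For neighbours in rank, both values of the brighter gene exceeded both values of the dimmer one in 9 of 299 pairs, and in 5 of the 19 pairs of the top 20. A member overlapped with a median of 12 of the ranks below it, so most neighbours cannot be ordered from these data.

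The boundary at rank 300 was gradual. Just inside lay AT2G26500 (1325 and 1223), AT1G03920 (1274 and 1256) and AT2G23090 (1250.2 and 1249). Just outside lay AT2G31800 (1259 and 1230.5), AT2G46140, a late embryogenesis abundant protein (1254 and 1233), and AT1G05960 (1305 and 1174). AT1G03920 lay above AT2G23090 and AT2G46140 on both arrays, while the values of many other pairs among these 6 genes overlapped.

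The least repeatable members were all brighter on replicate 1. ARLA1C, a small GTPase of the ARF-like family, read 2766 and 1381, the one member that differed by over 2-fold. psbM followed with the values above. AT1G67480 read 5286 and 3133, AT1G11770 read 4032 and 2844, and AT4G04980 read 1742 and 1237. Over the 300 as a whole, 215 were brighter on replicate 1, by a median log2 ratio of -0.08. Over all 13513 ranked probe sets, 6254 were brighter on replicate 1.

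For genes read by more than 1 ranked probe set, the choice of probe set mattered. There were 146 such genes, with a median ratio of 2.57 between their brightest and dimmest probe set and over 4-fold in 46. In the 300, 2 genes were of this kind, AT4G02480 (means of 1396 and 120) and AT3G22290 (1342 and 134), and neither had all its probe sets in the 300.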

How the data were processed

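The 2 wild-type arrays were read from the table of 6 ATH1 arrays. The values the authors deposited are linear signal intensity, a single number for each probe set on an array. The tools MAS5 and GCOS are given per the submitters' processing notes, with versions not given in the sources used here. Every value column matched a sample by its label (0 unmapped). Trimmed means (2% off each end) showed a common scaling, and nothing was rescaled here. Control probe sets were left out, as were probe sets with no listed gene or several. Genes came from the platform annotation, updated through a RefSeq gene table of assembly TAIR10.1: 13436 probe sets matched and 77 did not. The rest were ranked by mean signal, with a pseudocount of 1 on the log2 scale.

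The members and gene lists were chosen with earlier results of these data known. Symbol patterns that took unrelated genes were narrowed, and textbook families assigned, after values were seen. Named genes were the 20 brightest, 3 on each side of rank 300, up to 4 per list and per family of at least 3 members, the 5 least repeatable, all cell type markers and BZIP34. Other genes with symbols, members of smaller families, examples of neighbouring genes and genes with several probe sets were named after their values were seen. No sequence was printed, and 1 further family of the brightest 300 is not reported here. Ranking and shares were tested on simulated data. Python 3.11.15, pandas 2.3.3, numpy 2.4.6, scipy 1.17.1 and matplotlib 3.10.9 were used.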

Additional observations from a re-analysis of the deposited data

How the results depend on the processing

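The share of signal held by the brightest 300 depended on what it was a share of. It was 59.6% of the ranked signal, 31.6% when all non-control probe sets formed the denominator, and 49.5% when the 300 brightest of all non-control probe sets were taken, an alternative chosen after seeing the data. It was 60.2% after each array's 5th percentile was subtracted, 59.7% with 1 probe set per gene, 59.9% without probe sets marked as able to bind several transcripts, and 58.8% to 60.4% with 1 array left out. The mean of log2 signals and quantile normalization each kept all 300 members, and a ranking on 1 array kept 291 to 294. The correlation between the arrays was 0.837 with a pseudocount of 1, 0.813 with 0 and 0.904 with 10, and 0.922 for probe sets at or above the median. List members numbered 20 in the brightest 300, 8 in the brightest 100 and 49 in the brightest 600, as deeper ranks hold more genes. Families from protein alignments, and their identity thresholds, were not run; textbook families took their place. No paired analysis was possible because no result comes from a test and only 1 group was used. Dim signals limit the order well above the median of the ranking. At ranks 3001 to 6756 the median absolute log2 ratio between the arrays was 0.45, against 0.11 in the brightest 300. The arrays correlated at ranks 3001 to 6756 with a Pearson coefficient of 0.0499 and a Spearman coefficient of 0.209. These ranks are a narrow range of signal cut on the mean of the same 2 arrays, which by itself lowers both coefficients.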
